A study of Mus musculus with 9 samples.

Results

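The clustered protocadherins are cell-surface adhesion proteins encoded by neighbouring genes in 3 clusters, alpha, beta and gamma. All genes whose symbols consist of the prefix Pcdha, Pcdhac, Pcdhb, Pcdhga, Pcdhgb or Pcdhgc and a number were taken, which gave 57 of the 55291 genes in the deposited table. They are 11 alpha isoforms, 22 beta isoforms, 19 gamma isoforms (12 of the ga type and 7 of the gb type) and 5 C-type isoforms, Pcdhac1 and Pcdhac2 in the alpha cluster and Pcdhgc3, Pcdhgc4 and Pcdhgc5 in the gamma cluster. They were measured by RNA sequencing of mouse olfactory sensory neurons sorted for the odorant receptor they express. The groups were neurons of Olfr1507-IRES-GFP mice, of Olfr73-IRES-GFP mice and of Olfr160-IRES-mCherry mice, in which the receptor gene is followed by a fluorescent reporter, with 3 libraries in each group. The authors dissociated the main olfactory epithelium enzymatically and collected living cells with strong reporter fluorescence. The reporter colour therefore differs between Olfr160 and the other groups, and receptor and colour cannot be told apart in comparisons with Olfr160. The labels give neither age nor sex, nor do they tie libraries to single animals. The p-values therefore measure only the spread between these libraries, which may be technical, and the series text speaks of duplicates whereas 3 libraries per group were analysed.

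In neurons, each alternate isoform of the alpha, beta and gamma clusters has its own promoter and variable first exon, and single neurons are known to switch on a random few of them. The alpha and gamma variable exons are spliced to constant exons that all isoforms of the cluster share, whereas beta isoforms have no constant region. The C-type isoforms are not subject to this random choice. The proteins bind their own kind, which lets a neuron tell its own branches from those of others. In mice the clusters are needed for olfactory axons to gather correctly in glomeruli. A bulk library of many sorted neurons reports the sum over cells, so a lower level from fewer expressing cells and one from less RNA per cell cannot be told apart.

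Libraries held 17212807 to 36230606 counts, with the largest in Olfr1507 library 2. The tagged receptor was highest in its own group in every library, but its counts were uneven in Olfr160, at 3131, 9502 and 16531. Olfr1507 also had 1264, 2121 and 1574 counts in the Olfr160 libraries and 1315, 777 and 263 in the Olfr73 libraries. Outside their own groups Olfr73 had at most 53 counts in a library and Olfr160 at most 119. The 6 markers of mature olfactory sensory neurons took 7.15% to 7.41% of counts in Olfr1507, 4.70% to 4.86% in Olfr73 and 2.66% to 4.12% in Olfr160, so the labelled cell type was present in each group. The 6 markers of supporting (sustentacular) and gland cells took 0.0139% to 0.0300% in Olfr1507, 0.257% to 0.435% in Olfr73 and 1.28% to 2.31% in Olfr160, and no marker of that list was at 0 in all libraries of a group. Immune markers took 0.000173% to 0.000494% in Olfr1507, 0.00730% to 0.0110% in Olfr73 and 0.0245% to 0.0843% in Olfr160, with 2 of 6 at 0 throughout Olfr1507. Progenitor markers took 0.000144% to 0.000168%, 0.00334% to 0.00447% and 0.0120% to 0.0247%, with 2 of the 6 at 0 in all libraries of Olfr1507 and of Olfr73. Markers of glia, stroma and vessels took 0.000282% to 0.000339%, 0.00197% to 0.00338% and 0.00554% to 0.0149% in the same order of groups, with 1 of 8 at 0 throughout Olfr1507 (Sox10) and a different one at 0 throughout Olfr73 (Cdh5). These marker shares moved with the groups, and their part in the differences described below was not tested except where a measurement is given beside a result.

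The clusters lie in this order on mouse chromosome 18 (mm10, GENCODE M21). The alpha cluster spans 36930184 to 37187661, the beta cluster 37264938 to 37524479 and the gamma cluster 37661793 to 37841873. The annotation shows how far reads can be told apart. In the alpha cluster 2860 exonic bases belonged to all 13 members, and the median member shared 53.5% of its exonic bases with others. In the gamma cluster 2116 bases belonged to all 22 members, with a median of 44.7%. In the beta cluster 20 of 22 members shared no exonic base, and Pcdhb21 and Pcdhb22 overlapped. The authors' counts carry the same division: 100% of the alpha cluster values and 95.5% of the gamma cluster values were not whole numbers, against 6.06% of the beta values. Reads from shared exons were therefore divided among alpha or gamma isoforms by an estimate, so that alpha and gamma values are less certain than beta values.

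All 3 clusters were expressed in every library. Between 47 and 53 of the 57 genes reached 1 TPM (a level corrected for gene length and scaled to a common total) in a library. As a share of all counts the 57 genes took 0.115%, 0.102% and 0.0998% in the Olfr1507 libraries, 0.143%, 0.182% and 0.159% in the Olfr73 libraries, and 0.105%, 0.120% and 0.139% in the Olfr160 libraries. The Olfr73 libraries had the highest shares, without overlap with the others, and the Olfr1507 and Olfr160 libraries overlapped. The summed share of the 6 markers of immature neurons had the same highest group, at 0.262% to 0.305% of counts in Olfr1507, 0.427% to 0.485% in Olfr73 and 0.318% to 0.424% in Olfr160. That sum was mostly Ncam1, a neural adhesion molecule, with means of 2974 in Olfr1507, 3452 in Olfr73 and 1886 in Olfr160, in CPM after TMM scaling. The means of the other 5 markers were lower in Olfr73 than in Olfr160, among them Gap43, a growth cone protein, at 61.6 in Olfr73 and 106 in Olfr160. For Olfr73 over Olfr160 1 of the 6 was called higher and 3 were called lower. Their part in the protocadherin shares was not tested.

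**Figure D1:**
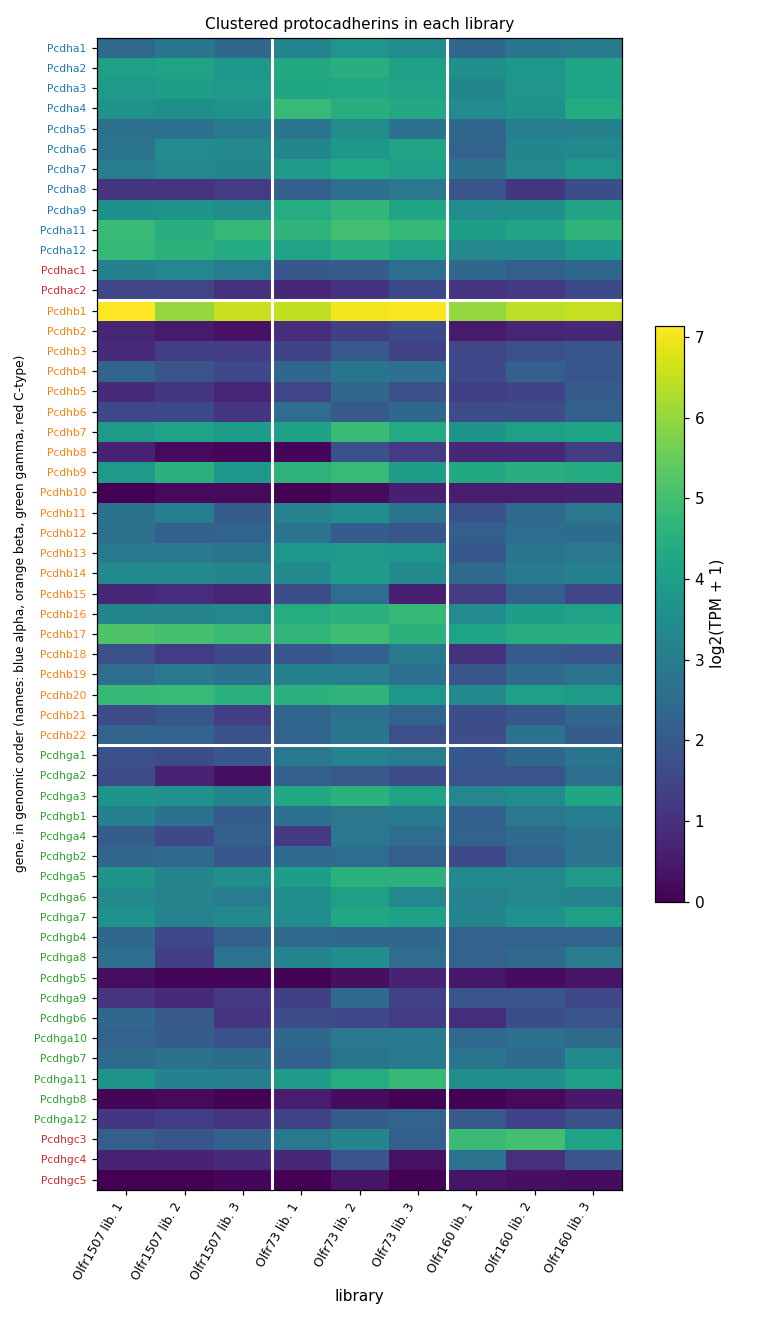
Level of each of the 57 genes (rows, in genomic order, with names coloured by class) in each of the 9 libraries (columns), as log2(TPM + 1); white lines part the groups and the clusters. Pcdhb1 is the brightest gene in every library, and Pcdhgc3 is brighter in the 3 Olfr160 libraries than in the other 6.

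A single gene dominated the beta cluster. Pcdhb1, the first beta gene in the cluster, had 140, 63.9 and 93.2 TPM in Olfr1507, 88.6, 128 and 133 TPM in Olfr73, and 63.5, 85.3 and 91.3 TPM in Olfr160. It was the most abundant beta isoform in all 9 libraries, with 29.0% to 48.6% of beta TPM, and its groups overlapped. Pcdhb17 and Pcdhb9 followed with means over the 9 libraries of 25.7 and 19.5 TPM, while Pcdhb8 and Pcdhb10 averaged 0.857 and 0.272 TPM. The evenness of a cluster was described by its effective number of isoforms, the inverse of the summed squared TPM shares, which equals the number of isoforms when all are equally abundant. It was 3.72 to 6.97 for the 22 beta isoforms, 7.35 to 9.65 for the 11 alpha isoforms and 9.90 to 13.2 for the 19 gamma isoforms.

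Alpha and gamma isoforms were spread more evenly, with no leader shared by all libraries. Pcdha11, Pcdha12 and Pcdha4 had the highest alpha means, at 23.6, 17.3 and 15.9 TPM, and Pcdha5 and Pcdha8 the lowest, at 6.45 and 2.74 TPM. The Pcdha11 values combine 2 annotated loci of that symbol. Pcdhga11, Pcdhga3 and Pcdhga5 had the highest gamma means, at 14.1, 14.0 and 13.8 TPM. Pcdhgb5 and Pcdhgb8 had the lowest, at 0.230 and 0.166 TPM. Position in a cluster went weakly with the mean level, with Spearman correlations of 0.336 over 11 alpha isoforms, 0.196 over 22 beta isoforms and -0.325 over 19 gamma isoforms; the isoforms share libraries, and in the alpha and gamma clusters also reads.

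The C-type isoforms, taken as a sum, made up a different part of the family's counts in each group. They took 3.38%, 3.98% and 3.64% of clustered protocadherin counts in Olfr1507, 2.21%, 2.39% and 2.18% in Olfr73, and 11.7%, 9.12% and 5.30% in Olfr160. The groups did not overlap, with Olfr160 highest and Olfr73 lowest, and Olfr160 library 3 lay nearest to the others. Different isoforms led the sum: Pcdhac1 in the Olfr1507 libraries (503, 959 and 449 counts) and Pcdhgc3 in the Olfr160 libraries (1521, 2027 and 962). The Olfr160 libraries also had the highest supporting and gland cell marker shares, whose part in this was not tested. Alpha isoforms took 30.0% to 33.9% in Olfr1507, 31.7% to 34.2% in Olfr73 and 26.7% to 31.5% in Olfr160. Beta isoforms took 43.0% to 44.7%, 40.0% to 40.9% and 36.1% to 40.5% in the same order, and gamma isoforms 18.8% to 21.9%, 22.8% to 26.2% and 23.3% to 26.8%. The Olfr1507 libraries thus had the highest beta shares and the lowest gamma shares, without overlap with the other 6. Shares of this kind do not depend on how libraries are scaled to each other.

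**Figure D2:**
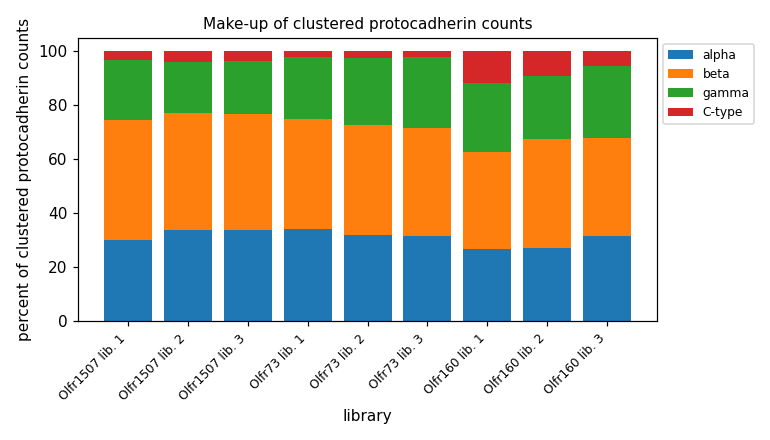
Percent of clustered protocadherin counts (bars stacked to 100) held by alpha, beta, gamma and C-type isoforms in each library, with the 3 Olfr1507 libraries at the left, then Olfr73 and Olfr160. The C-type segment is 2.18% to 3.98% in the 6 Olfr1507 and Olfr73 libraries and 5.30% to 11.7% in the Olfr160 libraries.

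Differences between groups were tested with edgeR's quasi-likelihood test over all 16399 genes kept by the count filter, and all 57 genes were among them. Levels between groups are given as normalised CPM, that is, CPM after TMM scaling. TMM multiplies each library total by a factor estimated from most genes, and so differs from scaling to library size alone. A gene was called at a Benjamini-Hochberg adjusted p under 0.05. Between Olfr1507 and Olfr160, 5 of the 57 genes were called higher in Olfr1507, where 20.7% of all tested genes were, and 1 was called lower, where 27.7% were. In either direction this made 6 of 57, against 48.4% of all tested genes. Between Olfr1507 and Olfr73, 3 were called higher in Olfr1507 (14.5% of all tested genes) and 12 lower (19.9%), 15 in either direction against 34.4%. Between Olfr73 and Olfr160, 8 were called higher in Olfr73 (7.45%) and 1 lower (10.5%), 9 in either direction against 17.9%. Each group enters 2 of the 3 comparisons, so these counts are not independent of each other.

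These counts depended on single libraries. The 5 genes higher in Olfr1507 than in Olfr160 became 8 without Olfr160 library 3, while 3399 of all tested genes became 3301. The 12 lower than in Olfr73 became 7, 6 and 3 without Olfr1507 library 1, 2 and 3, and 5 without Olfr73 library 2. Over all tested genes 3261 lower became 2088, 2377, 2309 and 2772 in the same fits. The 8 genes higher in Olfr73 than in Olfr160 became 2 without Olfr73 library 2 and 5 without Olfr73 library 3. They became 3 without Olfr160 library 1, 1 without Olfr160 library 2 and 14 without Olfr160 library 3. Over all tested genes 1222 higher became 735, 644, 572, 319 and 1458 in the same order. Fits that left out 1 library tested 16812 to 17414 genes. With Olfr160 library 3 alone standing for its group, Pcdhac1, Pcdhb20 and Pcdhb14 lost their calls for Olfr1507 over Olfr160. Their log2 fold changes in that fit were 1.13, 1.11 and 0.45. The calls between Olfr73 and Olfr160 were lost as well, with Pcdhb13 at 1.08. That fit called far fewer of all tested genes than the main fit. A call lost in it, here and below, therefore does not show that a difference rests on the other Olfr160 libraries. A library that stands alone is assumed to vary like those of the other groups. The median biological coefficient of variation, estimated by edgeR over all groups, was 0.288 for the 57 genes and 0.299 for all tested genes. Within groups the median coefficient of variation of normalised CPM was 0.188 for the 57 genes and 0.177 for all tested genes in Olfr1507; for Olfr73 these medians were 0.275 and 0.254, and for Olfr160 they were 0.307 and 0.214.

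The counts also depended on the scaling. When libraries were scaled to the summed counts of 22 olfactory transduction genes instead of by TMM, the median over all tested genes of the log2 fold change moved to -1.69 for Olfr1507 over Olfr160, against -0.14 with TMM. It moved to -1.03 for Olfr1507 over Olfr73, against -0.15, and for Olfr73 over Olfr160 to -0.69, against -0.01. The 22 genes themselves differed between groups, with mean shares of counts of 10.2% in Olfr1507, 6.92% in Olfr73 and 4.87% in Olfr160. With TMM, 18 of the 22 were called higher and 2 lower in Olfr1507 than in Olfr160. Against Olfr73, 11 were higher and 1 lower in Olfr1507, and 7 were higher in Olfr73 than in Olfr160. Scaling to their sum makes it equal in all libraries, which by construction lowers other genes where that sum was high. Under that scaling 52, 44 and 1 of the 57 genes were called lower in the 3 comparisons. In the same order 0, 0 and 1 were called higher, the 1 higher in Olfr73 than in Olfr160 being Pcdhb13. Of all 16399 tested genes, 13768, 9132 and 4714 were called lower under that scaling and 122, 358 and 105 higher. Over the 57 genes the medians were -0.01, -0.67 and 0.52 with TMM and -1.50, -1.55 and -0.14 with the transduction genes. With TMM their median thus lay below that of all tested genes for Olfr1507 over Olfr73. It lay above that of all tested genes in both comparisons with Olfr160. Rescaling shifts all genes of a comparison by nearly the same amount, so the same order with the transduction genes is no separate evidence.

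**Figure D3:**
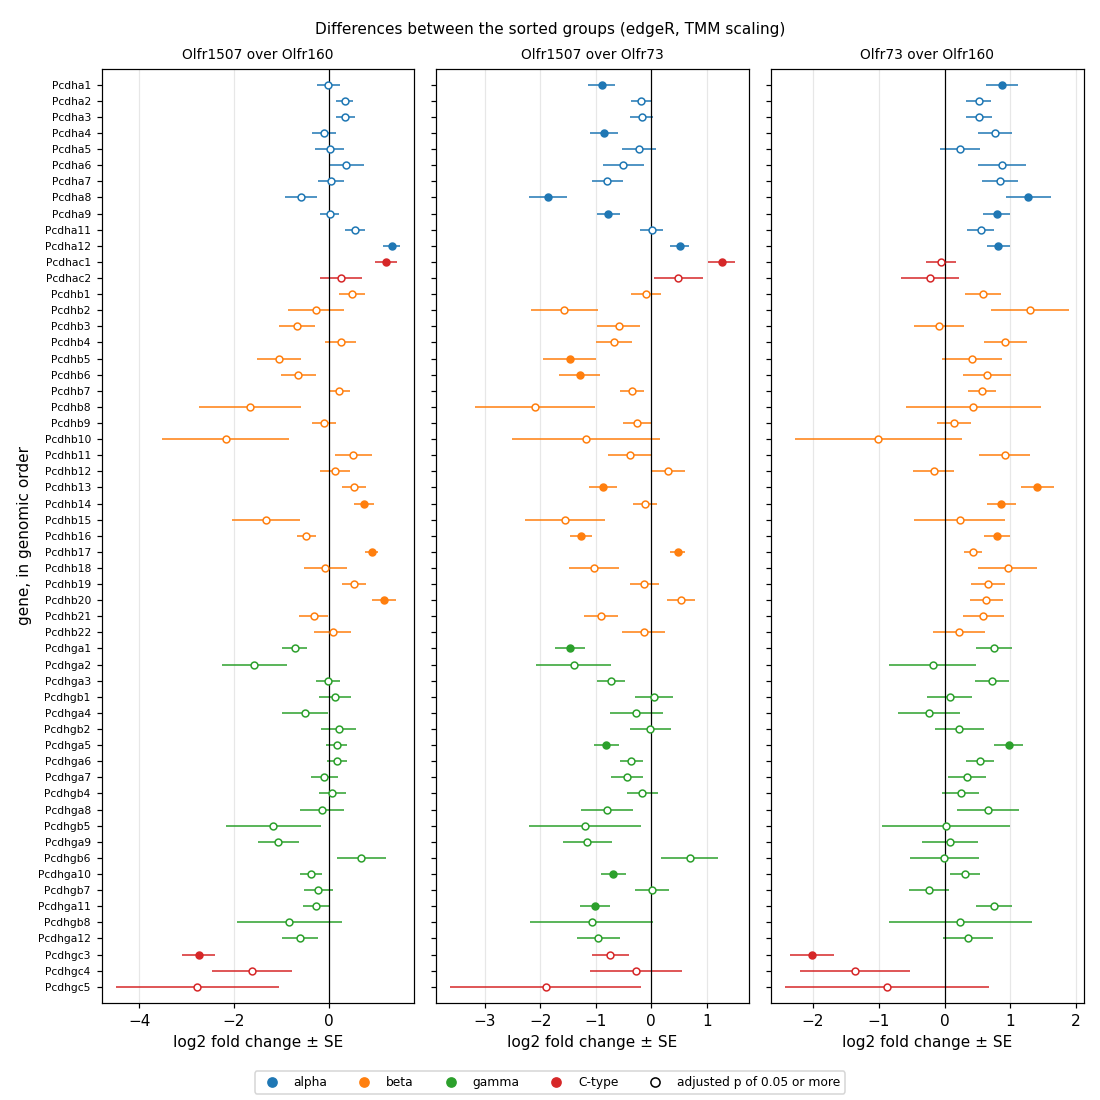
Log2 fold change (horizontal axis, with SE) of each of the 57 genes (vertical axis, in genomic order) in the 3 comparisons, 3 libraries per group, with TMM scaling; filled points had an adjusted p under 0.05. Pcdhgc3 stands far to the left in both comparisons with Olfr160. With scaling to olfactory transduction genes every gene in the first panel lies below 0, as does the median of all tested genes, at -1.69.

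Pcdhgc3, a C-type isoform that in mice is known to bind the Wnt pathway scaffold Axin1 and to promote branching of cortical dendrites, showed the largest called difference. Its normalised CPM was 10.3, 8.32 and 10.9 in Olfr1507, 17.0, 22.7 and 9.46 in Olfr73, and 73.2, 81.9 and 42.8 in Olfr160. All 3 Olfr160 libraries lay above the other 6, and Olfr1507 and Olfr73 overlapped. For Olfr1507 over Olfr160 its log2 fold change of -2.75 had an SE of 0.35 (edgeR adjusted p = 0.000267), and this call held under all 21 alternatives. It was lower in Olfr73 than in Olfr160 by -2.01 ± 0.33 (edgeR adjusted p = 0.00608), a call lost only when Olfr160 library 3 stood alone for its group (-1.39, adjusted p = 0.216). Between Olfr1507 and Olfr73 its log2 fold change was -0.74 ± 0.33 (edgeR adjusted p = 0.110). Within the gamma cluster, Pcdhgc3 held 3.32%, 3.46% and 4.49% of counts in Olfr1507, 5.24%, 4.83% and 2.33% in Olfr73, and 24.0%, 24.1% and 10.9% in Olfr160.

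The supporting and gland cell markers moved with Pcdhgc3 between groups. All 6 of these markers were lower in Olfr1507 than in Olfr160 and 5 of 6 were lower in Olfr73 than in Olfr160. Within Olfr160, library 3 had the lowest marker share, 1.28%, and the lowest Pcdhgc3 level, but library 1 had the highest marker share, 2.31%, and library 2, at 1.81%, the highest Pcdhgc3 level. Progenitor markers (0.0204%, 0.0247% and 0.0120% in libraries 1 to 3) and markers of glia, stroma and vessels (0.00863%, 0.0149% and 0.00554%) had the same order of Olfr160 libraries as Pcdhgc3. Between Olfr1507 and Olfr73 all 6 markers were lower in Olfr1507, while Pcdhgc3 did not pass the test. The part of any of these cells in the Pcdhgc3 difference was not tested. Antisense to Pcdhgc3 lies BC037039, which overlaps it by 1559 exonic bases and had 4.32, 39.2 and 19.3 counts in Olfr1507, 57.8, 53.9 and 11.5 in Olfr73, and 124, 160 and 121 in Olfr160. Pcdhgc3 itself had 190, 252 and 195 counts in Olfr1507, 385, 484 and 203 in Olfr73, and 1521, 2027 and 962 in Olfr160. The sources used here do not say that counting used strand, so reads from the overlap cannot be assigned with certainty.

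**Figure D4:**
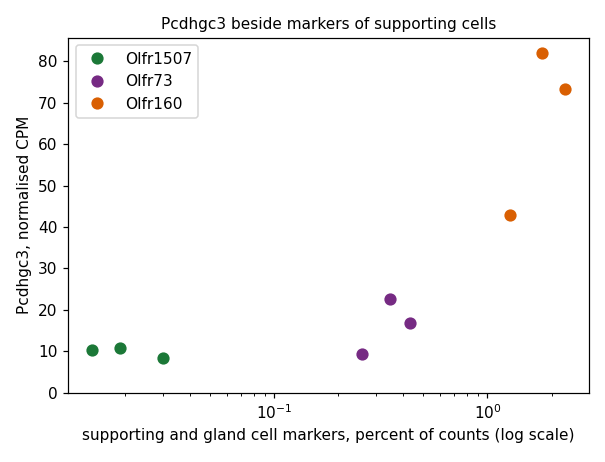
Normalised CPM of Pcdhgc3 (vertical axis) against the percent of counts taken by 6 supporting and gland cell markers (horizontal axis, log scale), 1 point per library, coloured by group. The 3 Olfr160 points lie highest on both axes, with library 3 at 1.28% and 42.8 CPM, and the Olfr1507 and Olfr73 points overlap in Pcdhgc3 but not in marker share.

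Pcdhac1, the first of the C-type isoforms of the alpha cluster, was highest in Olfr1507. Its normalised CPM was 27.1, 31.7 and 25.1 in Olfr1507, 8.89, 9.97 and 16.0 in Olfr73, and 13.0, 10.5 and 12.8 in Olfr160. The Olfr1507 libraries lay above all others, and Olfr73 and Olfr160 overlapped. The log2 fold change for Olfr1507 over Olfr160 was 1.21 ± 0.24 (SE, edgeR adjusted p = 0.00288) with TMM, a sign that turned to -0.35 with scaling to the transduction genes. Relative to Olfr73, Olfr1507 was higher by 1.27 ± 0.24 (edgeR adjusted p = 0.00379) with TMM, a call lost at 0.38 with that scaling (adjusted p = 0.299). The difference was -0.05 ± 0.23 between Olfr73 and Olfr160 (edgeR adjusted p = 0.898). Its share of alpha cluster counts, free of scaling, was 6.14%, 6.97% and 5.90% in Olfr1507, 1.89%, 1.71% and 3.19% in Olfr73, and 5.21%, 3.36% and 3.03% in Olfr160. By share, too, the Olfr1507 libraries lay above the other 6.

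The other C-type isoforms were scarce and passed the test in none of the 3 comparisons. Pcdhac2, which serotonergic neurons of mice need to space their axon branches, averaged 6.09 ± 1.84 normalised CPM in Olfr1507, 4.35 ± 2.30 in Olfr73 and 5.07 ± 1.57 in Olfr160 (SD, n = 3 each). Pcdhgc4, known in mice for the survival of cortical interneurons, averaged 1.84 ± 0.54 in Olfr1507, 2.22 ± 2.41 in Olfr73 and 5.69 ± 3.93 in Olfr160. Its spread was wide: Olfr73 libraries ran from 0.419 to 4.96 and Olfr160 libraries from 2.22 to 9.97. Pcdhgc5, a partner of GABA-A receptors in rodent neurons, had 0, 0 and 6.02 counts in Olfr1507, 0, 24.1 and 2.01 in Olfr73, and 22.1, 17.2 and 11.3 in Olfr160. Differences in Pcdhgc5 were at the limit of detection at this depth, where 3 counts correspond to 0.0828 to 0.174 CPM per library.

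Among alternate alpha isoforms, Pcdha12, the last one before the C-type exons, was highest in Olfr1507. Its normalised CPM was 90.0, 80.5 and 71.1 in Olfr1507, 49.4, 66.3 and 53.5 in Olfr73, and 27.9, 28.7 and 39.3 in Olfr160. The 3 groups did not overlap. It was higher in Olfr1507 than in Olfr160 by 1.33 ± 0.18 on the log2 scale (SE, edgeR adjusted p = 0.000345) with TMM, and at -0.18, where the median gene lay at -1.69, with scaling to the transduction genes. It was higher in Olfr73 than in Olfr160 by 0.82 ± 0.17 (edgeR adjusted p = 0.0146), a call lost without Olfr160 library 1 or 2 (highest adjusted p = 0.0674). In Olfr1507 over Olfr73 it passed narrowly at 0.51 ± 0.17 (edgeR adjusted p = 0.0451), turned to -0.36 with scaling to the transduction genes, and was lost in 6 of the 9 fits that left out 1 library (any of Olfr1507, Olfr73 library 1 or 3, or Olfr160 library 2), with adjusted p up to 0.146. As a share of alpha cluster counts Pcdha12 held 20.4%, 17.7% and 16.7% in Olfr1507, 10.5%, 11.4% and 10.7% in Olfr73, and 11.2%, 9.22% and 9.31% in Olfr160. By share, Olfr1507 lay apart from both other groups, which overlapped. The opposite-strand genes Gm10545 and Gm10544 overlap exons of Pcdha11, and Gm10545 those of Pcdha12 by 531 bases.

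Pcdha8 went the other way and was highest in Olfr73. Its normalised CPM was 3.83, 3.96 and 4.86 in Olfr1507, 10.8, 15.9 and 19.2 in Olfr73, and 8.52, 3.72 and 6.80 in Olfr160. The Olfr73 libraries lay above all others. It was lower in Olfr1507 than in Olfr73 by -1.86 ± 0.35 on the log2 scale (SE, edgeR adjusted p = 0.00382), a call kept under all 20 alternatives. Olfr73 was higher than Olfr160 by 1.27 ± 0.34 (edgeR adjusted p = 0.0334). That call was lost without Olfr73 library 2 or 3 or Olfr160 library 2 or 3 (highest adjusted p = 0.0972). As a share of alpha cluster counts Pcdha8 held 0.868%, 0.874% and 1.15% in Olfr1507. It held 2.30%, 2.74% and 3.82% in Olfr73, and 3.42%, 1.20% and 1.61% in Olfr160. By share, Olfr73 and Olfr160 overlapped, and Olfr1507 lay below both.

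Pcdha1, Pcdha4 and Pcdha9 were also lower in Olfr1507 than in Olfr73, with log2 fold changes of -0.89, -0.86 and -0.77 (edgeR adjusted p = 0.0206, 0.0286 and 0.0183). These calls were not stable: those of Pcdha1 and Pcdha9 were lost without Olfr1507 library 1 or 3 or Olfr73 library 2 (highest adjusted p 0.0802 and 0.0675), and that of Pcdha4 without any 1 of the Olfr1507 libraries or Olfr73 library 1 or 2 (highest 0.0947). Pcdha1 and Pcdha9 were higher in Olfr73 than in Olfr160, by 0.88 and 0.79 (edgeR adjusted p = 0.0367 and 0.0294). The first of these was lost without Olfr1507 library 3, Olfr73 library 2 or 3, or Olfr160 library 1 or 2 (highest adjusted p = 0.109), and the second without Olfr73 library 2 or Olfr160 library 1 or 2 (highest 0.115). All 11 alternate alpha isoforms had a positive log2 fold change for Olfr73 over Olfr160, with a median of 0.79 against -0.01 for all tested genes. Of the 11, 4 were called higher (36.4%), against 7.45% of all tested genes. These isoforms share constant exons whose reads were divided among them, so their signs and calls are not independent of each other. With scaling to the transduction genes 7 of the 11 were positive, with a median of 0.19 against -0.69 for all tested genes, and 0 were called. For Olfr1507 over Olfr160, with TMM, 1 of the 11 was called (9.09%, against 48.4% of all tested genes in either direction). For Olfr1507 over Olfr73, 1 was called higher and 4 lower (45.5%, against 34.4%). Summed over the alternate alpha isoforms, normalised CPM was 406 ± 9.80 in Olfr1507, 502 ± 58.6 in Olfr73 and 310 ± 86.3 in Olfr160 (SD, n = 3 each).

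In the beta cluster, whose reads are nearly all unique to a gene, Pcdhb17 and Pcdhb20 were highest in Olfr1507. Pcdhb17 had 103, 96.9 and 85.7 normalised CPM in Olfr1507, 64.6, 78.3 and 62.8 in Olfr73, and 43.1, 54.4 and 54.7 in Olfr160. The 3 groups did not overlap. For Olfr1507 over Olfr160 its log2 fold change was 0.91 ± 0.14 (SE, edgeR adjusted p = 0.000788) with TMM and -0.61 with scaling to the transduction genes. For Olfr1507 over Olfr73 it was 0.47 ± 0.14 (edgeR adjusted p = 0.0265) with TMM and -0.40 with that scaling, and the call was lost without Olfr1507 library 1 or 2 or Olfr73 library 1 or 3 (highest adjusted p = 0.0958). Its share of beta counts was 17.0%, 18.3% and 17.0% in Olfr1507, 11.8%, 10.9% and 10.4% in Olfr73, and 13.8%, 12.3% and 11.7% in Olfr160. The Olfr1507 libraries thus stood above the other 6 by share as well.

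Pcdhb20 had 57.4, 60.3 and 50.7 normalised CPM in Olfr1507, 43.7, 47.3 and 25.3 in Olfr73, and 18.4, 30.3 and 26.1 in Olfr160. Olfr1507 stood apart from both other groups, which overlapped. Olfr1507 was higher than Olfr160 by 1.17 ± 0.25 on the log2 scale (SE, edgeR adjusted p = 0.00480) with TMM, a sign that turned to -0.34 with scaling to the transduction genes. Between Olfr1507 and Olfr73 the log2 fold change was 0.53 ± 0.25 (edgeR adjusted p = 0.122). Pcdhb14 was also higher in Olfr1507 than in Olfr160, by 0.75 ± 0.22 (edgeR adjusted p = 0.0202) with TMM against -0.74 with the transduction genes, and lost its call without Olfr1507 library 1 or 2 or Olfr160 library 1 (highest adjusted p = 0.0578). Pcdhb14 was higher in Olfr73 than in Olfr160 as well, by 0.86 ± 0.22 (edgeR adjusted p = 0.0286), a call lost without Olfr73 library 2 or Olfr160 library 1 or 2 (highest 0.0873).

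Pcdhb16 and Pcdhb13 were highest in Olfr73. Pcdhb16 had 28.6, 27.7 and 31.3 normalised CPM in Olfr1507, 60.5, 68.4 and 81.6 in Olfr73, and 29.1, 43.9 and 48.2 in Olfr160. The Olfr73 libraries lay above all others, and Olfr1507 and Olfr160 overlapped. It was lower in Olfr1507 than in Olfr73 by -1.27 ± 0.19 on the log2 scale (SE, edgeR adjusted p = 0.00147), kept under all 20 alternatives. Olfr73 was higher than Olfr160 by 0.80 ± 0.19 (edgeR adjusted p = 0.0231), lost without Olfr73 library 2 or 3 or Olfr160 library 2 (highest 0.0651). As a share of beta counts, however, Pcdhb16 held 4.70%, 5.22% and 6.20% in Olfr1507, 11.0%, 9.52% and 13.5% in Olfr73, and 9.27%, 9.91% and 10.4% in Olfr160. By share it was Olfr1507 that lay apart, below the other 6 libraries.

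Pcdhb13 had 15.2, 14.8 and 13.6 normalised CPM in Olfr1507, 25.8, 28.0 and 26.0 in Olfr73, and 5.87, 11.6 and 12.5 in Olfr160. The 3 groups did not overlap. It was higher in Olfr73 than in Olfr160 by 1.41 ± 0.26 on the log2 scale (SE, edgeR adjusted p = 0.00845), kept in all 9 fits that left out 1 library. It was lower in Olfr1507 than in Olfr73 by -0.88 ± 0.25 (edgeR adjusted p = 0.0257), lost without any 1 of the Olfr1507 libraries or Olfr73 library 1 or 2 (highest 0.0846). The low genes Pcdhb5 and Pcdhb6, with means of 1.94 and 3.46 in Olfr1507 against 5.41 and 8.46 in Olfr73, had log2 fold changes of -1.47 and -1.28 (edgeR adjusted p = 0.0389 and 0.0254). The call of Pcdhb5 was lost in 6 of the 9 such fits (any 1 of the Olfr1507 libraries, Olfr73 library 2 or 3, or Olfr160 library 2) and that of Pcdhb6 in 4 (Olfr1507 library 2 or 3, Olfr73 library 1 or 3), with adjusted p up to 0.132 and 0.0736. Pcdhb1, the most abundant gene of the family, was not called in any comparison, with log2 fold changes of 0.50 ± 0.27, -0.09 ± 0.27 and 0.59 ± 0.27. Summed beta levels were 547 ± 53.9 in Olfr1507, 624 ± 86.4 in Olfr73 and 407 ± 81.8 in Olfr160 (SD, n = 3 each).

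No alternate gamma isoform was called between Olfr1507 and Olfr160, with 0 of 19 past the threshold by edgeR, 3 at an unadjusted p under 0.05 (Pcdhga1, Pcdhga2 and Pcdhga9, all lower in Olfr1507), 3 by DESeq2 and 1 by limma-voom. Of all 16399 tested genes 48.4% were called in that comparison by edgeR, 8325 genes by DESeq2 and 8058 by limma-voom. Between Olfr1507 and Olfr73, 4 gamma isoforms were called and all were lower in Olfr1507. This was 21.1% of the gamma isoforms, near the 19.9% of all tested genes called lower. Pcdhga1, the first gene of the cluster, had 6.48, 5.58 and 7.65 normalised CPM in Olfr1507, 16.5, 20.2 and 17.8 in Olfr73, and 7.27, 10.3 and 14.8 in Olfr160. The Olfr73 libraries lay above all others, and Olfr1507 and Olfr160 overlapped. Its log2 fold change for Olfr1507 over Olfr73 was -1.47 ± 0.27 (SE, edgeR adjusted p = 0.00368), kept under all 20 alternatives.

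Pcdhga11, Pcdhga5 and Pcdhga10 had log2 fold changes of -1.02, -0.81 and -0.68 for Olfr1507 over Olfr73 (edgeR adjusted p = 0.0179, 0.0207 and 0.0462). That of Pcdhga11 was lost without Olfr1507 library 2 or 3 or Olfr73 library 3, and that of Pcdhga5 without Olfr1507 library 2 or 3 or Olfr73 library 2 or 3 (highest adjusted p 0.0685 and 0.0800). The call of Pcdhga10 was lost in 8 of the 9 fits that left out 1 library, all but that without Olfr73 library 1, with adjusted p up to 0.149. Pcdhga5 was the only gamma isoform called between Olfr73 and Olfr160, higher in Olfr73 by 0.98 ± 0.22 (edgeR adjusted p = 0.0187). It made 5.26% of the gamma isoforms, against 7.45% of all tested genes called higher in Olfr73. Its call was lost without Olfr73 library 2 or 3 or Olfr160 library 1 or 2 (highest 0.0821). Exons of Pcdhga10, Pcdhga11, Pcdhga12 and Pcdhgb7 overlap the opposite-strand gene Gm26672, which had 36.1, 57.4 and 28.9 counts in Olfr1507, 44.2, 66.6 and 151 in Olfr73, and 51.2, 41.9 and 54.7 in Olfr160. Summed gamma levels were 252 ± 39.2 in Olfr1507, 381 ± 69.0 in Olfr73 and 273 ± 62.9 in Olfr160 (SD, n = 3 each).

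**Figure D5:**
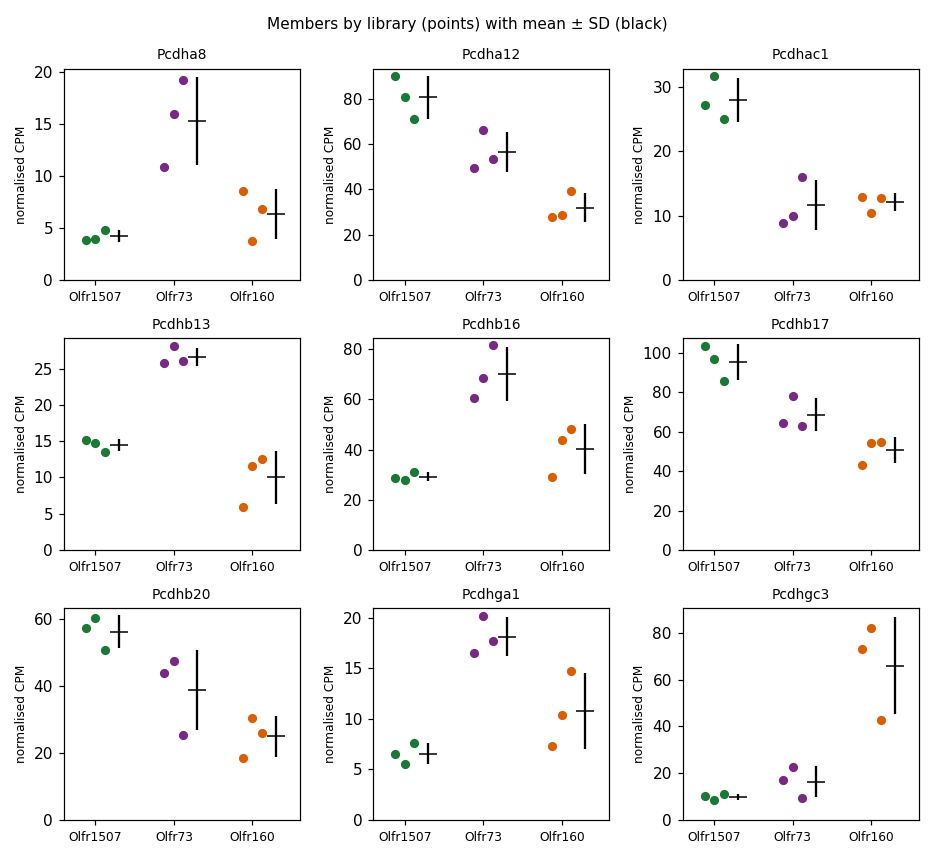
Normalised CPM (vertical axes, from 0) of the 9 genes whose call in at least 1 comparison held in all fits that left out 1 library; coloured points are the 3 libraries of each group, and black marks are mean ± SD. Pcdha12, Pcdhac1, Pcdhb17 and Pcdhb20 are highest in Olfr1507, Pcdha8, Pcdhb13, Pcdhb16 and Pcdhga1 in Olfr73, and Pcdhgc3 in Olfr160 with TMM scaling; with scaling to olfactory transduction genes the first 4 have negative log2 fold changes for Olfr1507 over Olfr160.

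Genes whose libraries did not overlap between groups were counted as well. For Olfr1507 over Olfr160, 6 of 57 lay wholly above and 11 wholly below, against 29% and 36.8% of all tested genes. In Olfr1507 over Olfr73, 4 lay wholly above and 20 wholly below, against 22.7% and 24.9%. For Olfr73 over Olfr160, 16 lay wholly above and 1 wholly below, against 17.2% and 23.8%. The 1 below was Pcdhgc3.

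Levels of genes that act on or with the clusters were read from 4 lists. Protocadherin promoters are chosen through looping by CTCF and cohesin. Of 13 such genes, 3 were higher and 1 lower in Olfr1507 than in Olfr160, 1 was higher and 3 lower in Olfr1507 than in Olfr73, and the 3 called between Olfr73 and Olfr160 were higher in Olfr73. In either direction this made 30.8%, 30.8% and 23.1% of the list, against 48.4%, 34.4% and 17.9% of all tested genes. The cohesin subunits Smc1a and Rad21 were higher in Olfr1507 than in Olfr160 by 0.53 ± 0.10 and 0.81 ± 0.17 on the log2 scale (SE, edgeR adjusted p = 0.00242 and 0.00367) with TMM, and at -1.01 and -0.72 with scaling to the transduction genes. With library size alone they were at 0.11 and 0.39 and not called (adjusted p = 0.326 and 0.0763), and the call of Rad21 was also lost with Olfr160 library 3 alone (adjusted p = 0.0990). Smc1a was at 0.34 and the cohesin regulator Pds5a at 0.48 for Olfr73 over Olfr160 with TMM, but at -0.31 and -0.20 with that scaling. Pds5a and the cohesin loader Mau2 were lower in Olfr1507 than in Olfr73, by -0.51 and -0.47 (edgeR adjusted p = 0.0170 and 0.0270). That of Pds5a was lost without Olfr1507 library 1 or 3 or Olfr73 library 2, and that of Mau2 without Olfr1507 library 1 or 2 or Olfr73 library 2 or 3 (highest adjusted p 0.0671 and 0.107). Between Olfr73 and Olfr160 the call of Smc1a held only without Olfr1507 library 1 or Olfr160 library 3, and that of Pds5a only without Olfr73 library 1, among the 9 such fits (highest 0.119 and 0.135).

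Of 17 genes of DNA methylation and heterochromatin, 1 was higher and 6 lower in Olfr1507 than in Olfr160, the 3 called against Olfr73 were lower in Olfr1507, and 2 were higher and 1 lower in Olfr73 than in Olfr160. These were 41.2%, 17.6% and 17.6% of the list, against 48.4%, 34.4% and 17.9% of all tested genes. Smchd1, a chromatin protein known to repress clustered protocadherins in mice, averaged 21.2 ± 3.23 normalised CPM in Olfr1507, 24.4 ± 4.26 in Olfr73 and 94.8 ± 33.8 in Olfr160 (SD, n = 3 each). Its log2 fold change was -2.16 ± 0.26 for Olfr1507 over Olfr160 (SE, edgeR adjusted p = 0.000202) and -1.96 ± 0.26 for Olfr73 over Olfr160 (edgeR adjusted p = 0.00282). The call for Olfr73 over Olfr160 was lost with Olfr160 library 3 alone (adjusted p = 0.0598). Cbx5, the heterochromatin protein HP1 alpha, was lower in Olfr1507 than in Olfr160 and in Olfr73, by -0.94 and -0.78 (edgeR adjusted p = 0.000224 and 0.00119), and the call against Olfr73 was lost with TPM (highest adjusted p = 0.0570). Tet3, a methylcytosine oxidase, was lower in Olfr1507 than in Olfr73 by -0.85 (edgeR adjusted p = 0.00439), a call that was also lost with TPM (highest adjusted p = 0.115). Cbx3, the heterochromatin protein HP1 gamma, was higher in Olfr73 than in Olfr160 by 0.73 (edgeR adjusted p = 0.0263). The call of Cbx3 was lost without Olfr73 library 1 or 3 or any 1 of the Olfr160 libraries (highest adjusted p = 0.0888).

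Of 22 signalling partners 19 were tested. In Olfr1507, 1 was higher and 4 lower than in Olfr160, and 2 were higher and 2 lower than in Olfr73, while the 2 called between Olfr73 and Olfr160 were lower in Olfr73. These were 26.3%, 21.1% and 10.5% of the tested partners, against 48.4%, 34.4% and 17.9% of all tested genes. Marcks, an actin-binding substrate of protein kinase C, averaged 4.48 ± 1.78 normalised CPM in Olfr1507, 9.59 ± 0.89 in Olfr73 and 31.9 ± 9.08 in Olfr160 (SD, n = 3 each), and was lower in both than in Olfr160 (log2 fold changes of -2.82 and -1.74, edgeR adjusted p = 0.000162 and 0.00788). The call for Olfr73 over Olfr160 was lost with Olfr160 library 3 alone (-1.46, adjusted p = 0.209). Cyfip1, a subunit of the WAVE complex that drives actin branching, was lower in Olfr1507 than in Olfr160 and in Olfr73, by -1.55 and -1.10 (edgeR adjusted p = 0.000308 and 0.00328). Ptk2b, a focal adhesion kinase relative that gamma protocadherins inhibit in mice, was higher in Olfr1507 than in Olfr73 by 2.17 ± 0.53 (edgeR adjusted p = 0.0127), lost without Olfr1507 library 1 (adjusted p = 0.0511) and with scaling to the transduction genes (adjusted p = 0.0670). The receptor kinase Ret was at 0 in all Olfr1507 and Olfr73 libraries and averaged 0.770 ± 0.173 normalised CPM in Olfr160 (SD, n = 3), from 53 counts in all. Its call for Olfr73 over Olfr160 (edgeR adjusted p = 0.0280) was lost without Olfr73 library 3 or any 1 of the Olfr160 libraries (highest adjusted p = 0.122). Supporting cell markers had the same order of groups as Marcks, and their part in it was not tested.

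Of 13 genes that flank the clusters 11 were tested. The 4 called between Olfr1507 and Olfr160 were higher in Olfr1507, as were the 4 called against Olfr73, while 1 was higher and 1 lower in Olfr73 than in Olfr160. These were 36.4%, 36.4% and 18.2% of the tested flanking genes, against 48.4%, 34.4% and 17.9% of all tested genes. Hars, a histidyl-tRNA synthetase, and Ik, a splicing factor, were higher in Olfr1507 than in Olfr160 by 0.82 and 0.59 (edgeR adjusted p = 9.27e-05 and 0.00139) and than in Olfr73 by 0.49 each (edgeR adjusted p = 0.00266 and 0.00598) with TMM, with all 4 values negative under scaling to the transduction genes. Hars was higher in Olfr73 than in Olfr160 by 0.33 (edgeR adjusted p = 0.0284) with TMM and at -0.33 with that scaling, and Hdac3, a histone deacetylase, was lower by -0.41 (edgeR adjusted p = 0.0387). Both calls between Olfr73 and Olfr160 were lost in 7 of the 9 fits that left out 1 library (highest adjusted p 0.0786 and 0.119); that of Hars held without Olfr1507 library 1 or Olfr160 library 3, and that of Hdac3 without Olfr73 library 3 or Olfr160 library 3.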

How the data were processed

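Polyadenylated RNA of sorted neurons was sequenced after a low-input library preparation, per the labels' protocols. The submitters' processing notes name STAR 2.6.1, RSEM 1.3.1, DESeq2 (no version) and the build mm10. The authors' annotation is not stated in them. The deposited tables hold expected counts per gene, in which a read that fits several genes is divided among them, and TPM. Columns carry older receptor names, matched to groups through listed synonyms and checked against counts of the tagged receptors.

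Expected counts were rounded and fitted with edgeR 4.0.16 in R 4.3.3 over all 9 libraries, with filterByExpr by group, TMM scaling and a robust quasi-likelihood F test of group means. P-values were adjusted by Benjamini-Hochberg over 16399 genes, with a threshold of 0.05. Each SE was taken as the absolute log2 fold change over the root of its F statistic. TPM described levels between genes. Shared exonic bases came from GENCODE M21, in which 98.7% of the tables' transcripts were found. Non-whole values differed from a whole number by more than 0.001.

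Alternatives were RLE factors, library size alone, scaling to the olfactory transduction list, no count filter, at least 1 CPM in 3 libraries, DESeq2 1.42.0, limma-voom (limma 3.58.1), limma-trend on log2(TPM + 1) and log2(TPM + 0.1), a replicate block, a fit to the 6 libraries of each comparison, and leaving out each library. Olfr160 library 3 alone was added after seeing the data. The fit was tested on simulated data. Genes were named by rule: every member past the threshold, all C-type isoforms, the 3 most and 2 least abundant alternate isoforms of each cluster, and up to 2 genes with the lowest p of each of 4 other lists per comparison. Members and lists were chosen with earlier results of these data known. Python 3.11.15 with pandas 2.3.3, numpy 2.4.6, scipy 1.17.1 and matplotlib 3.10.9 was used. Sequences were not used here.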

Additional observations from a re-analysis of the deposited data

How the results depend on the processing

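Over 65 values of 36 named genes and 1333 alternatives, 1082 kept direction and call, 217 lost the call, 6 gained it and 28 changed sign. Counts of called genes follow as higher and lower in the first group. With scaling to the transduction list, 122 and 13768, 358 and 9132, and 105 and 4714 of all 16399 tested genes were called in the 3 comparisons. The genes of that list took a larger share of counts in Olfr1507 than in the other groups, so this scaling shifts other genes down in Olfr1507 by construction. For Olfr1507 over Olfr160, 5 and 1 became 0 and 52 with scaling to the transduction list, and some calls were lost with Olfr160 library 3 alone. The lower count was 10 with library size alone, and 3 with RLE factors and with TPM at either pseudocount. It was 2 with the 1 CPM filter and limma-voom, 5 with only the 6 libraries compared and 6 with DESeq2. Over all tested genes the lower count was 4540 in the main fit, 6262 with library size alone and 4831 with RLE factors. With TPM it was 5221 at pseudocount 1 and 5449 at pseudocount 0.1. The 1 CPM filter gave 4101 of 14718 genes, limma-voom 4486, only the 6 libraries compared 4995 of 15523, and DESeq2 5248. For Olfr1507 over Olfr73, 3 and 12 became 0 and 44 with the list and 1 and 24 with library size alone, and the higher count was 1 with TPM. Over all tested genes 2379 and 3261 became 1047 and 4706 with library size alone. The higher count over all tested genes became 1420 and 1474 with TPM at pseudocounts 1 and 0.1. For Olfr73 over Olfr160, 8 and 1 became 1 and 1 with the list, and the calls were lost with Olfr160 library 3 alone. The higher count was 3 with only the 6 libraries compared and 14 with limma-voom. Over all tested genes 1222 higher became 658 of 16158 and 1542 in the same order. Among the clustered protocadherins, leaving out 1 library gave 4 to 8 and 1 to 3, then 1 to 3 and 3 to 14, then 1 to 14 and 1 to 1. Over all tested genes these fits gave 2686 to 3658 and 3622 to 5232 for Olfr1507 over Olfr160. For the other comparisons they gave 1569 to 2535 and 2088 to 3229, then 319 to 1458 and 657 to 1739.

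Replicate numbers did not pair libraries: 1 of 9 correlations of same-numbered libraries was over 0.1, and 3 of 9 libraries correlated best with their own number. With the replicate block the counts were 5 and 2, 2 and 10, and 10 and 1. Over all tested genes they were 3190 and 4208, 2096 and 2708, and 1021 and 1464.

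Library size alone also ended calls of Olfr1507 over Olfr73 in Pcdha12 (0.20, adjusted p = 0.335), Pcdhb17 (0.16, 0.304), Hars (0.17, 0.112) and Ik (0.17, 0.168), and of Olfr1507 over Olfr160 in Pcdhb14 (0.34, 0.180) and Ik (0.17, 0.158). TPM at either pseudocount ended those of Pcdha12, Pcdhb17 and Pcdhb14 too.

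The log2 ratio of summed levels for Olfr1507 over Olfr160 was 0.21, but -0.20 with library size alone and -1.29 with the list. For Olfr1507 over Olfr73 it was -0.30, against -0.61 and -1.18, and for Olfr73 over Olfr160 it was 0.51, against -0.11 with the list. Library size alone put the median of all genes at -0.56, -0.47 and -0.12, and RLE factors at -0.24, -0.18 and -0.09. By TPM in place of counts the shares of alpha, beta, gamma and C-type isoforms were 27.5%, 51.7%, 17.9% and 2.90% in Olfr1507, 27.9%, 47.8%, 22.4% and 1.94% in Olfr73, and 24.1%, 45.3%, 22.7% and 7.79% in Olfr160; length correction enters these by construction.

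Signs that turned with the list, for Olfr1507 over Olfr160, were Pcdha12 -0.18, Pcdhac1 -0.35, Pcdhac2 -1.21, Pcdhb14 -0.74, Pcdhb17 -0.61, Pcdhb20 -0.34, Smc1a -1.01, Rad21 -0.72, Hars -0.73 and Ik -0.96. For Olfr1507 over Olfr73 they were Pcdha12 -0.36, Pcdhac2 -0.39, Pcdhb17 -0.40, Hars -0.39 and Ik -0.39, and for Olfr73 over Olfr160 Pds5a -0.20, Smc1a -0.31 and Hars -0.33. The other sign changes were in values that passed no test. Pcdhac2 for Olfr1507 over Olfr160 was -0.15 with library size alone and -0.17 with Olfr160 library 3 alone. For Olfr1507 over Olfr73, Pcdhgc4 was 0.0013 with the replicate block, 0.33 with limma-voom and -0.75 to 1.13 with 1 library left out, and Pcdhgc5 was -6.22 to 1.11 with 1 left out, both positive without Olfr73 library 2. For Olfr73 over Olfr160, Pcdhac1 was -0.35 to 0.11 with 1 left out, positive without Olfr73 library 1 or 2, and Pcdhac2 was -0.73 to 0.059, positive without Olfr73 library 1 or Olfr160 library 3. Apart from the list scaling the cause of these changes was not tested. Depth limits the low isoforms Pcdhgc5, Pcdhb10, Pcdhgb5 and Pcdhgb8, with 0 to 34.0 counts per library.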
